A study of Mus musculus with 16 samples.

Results

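The T cell receptor (TCR) repertoires of the 2 experiments of the series were compared in the mice that received control IgG. Experiment 2 was set against experiment 1, with 1 wild-type (WT) and 1 knockout (KO) library in each and the genotype as the pair. The members are the cells of these 4 libraries with exactly 1 TRB (beta) contig and 1 or 2 TRA (alpha) contigs. They number 17235 of the 34080 cells listed for the 4 libraries, and 38108 of 74368 cells met the same rule in all 8 TCR libraries of the series.

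The WT mice of experiment 1 carried Eomes-IRES-GFP, a reporter of the transcription factor Eomes, and received no tamoxifen. The KO mice of experiment 1 were Eomes fl/fl-CD4Cre, in which Cre is driven by the CD4 promoter, also without tamoxifen. In experiment 2 the WT mice carried Eomes-IRES-GFP and the KO mice were Eomes fl/fl-ERT2CD4Cre, whose Cre needs tamoxifen, and both genotypes were given tamoxifen. Every mouse of the 4 groups also had antibody against NK1.1 (50 µg, days -2 and 5), a graft of Vk12653 myeloma cells on day 0, and 20 µg of control IgG on days 10, 13 and 16. On day 18 the spleen was taken and its CD4+ T cells were sorted for high CD44, which marks antigen-experienced cells. The experiment, which the labels call a batch, and the tamoxifen cannot be told apart, and for the KO pair neither can the kind of knockout. The labels do not say how many mice a library holds or that libraries came from separate animals, so spread and p-values here measure the spread between these libraries, which may be technical. The files hold only TRA and TRB contigs, so CD4, CD44 and Eomes could not be checked in them, and 0 contigs belonged to B cell or gamma-delta T cell receptors.

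As background, each T cell builds its receptor in the thymus by joining a V and a J segment for the alpha chain and a V, a D and a J segment for the beta chain. The junction, called the third complementarity-determining region (CDR3), gains and loses bases during joining and is the part that mostly contacts the peptide. A clonotype is the set of cells that descend from 1 such event, here the cells of 1 library with the same beta chain and the same main alpha chain in V, J and CDR3 nucleotides. Conventional CD4+ T cells have very varied receptors. Invariant natural killer T (NKT) cells instead carry a nearly fixed alpha chain, TRAV11 joined to TRAJ18, with beta chains of a few V families, and recognise lipids on CD1d. Many of them carry NK1.1 in strains that have it.

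The libraries held 4057 paired cells (experiment 1 WT), 2728 (experiment 1 KO), 4459 (experiment 2 WT) and 5991 (experiment 2 KO), in 3425, 2307, 3656 and 4773 clonotypes. Depth ranged from 80551 to 224646 TCR unique molecular identifiers (UMIs) per library, lowest in experiment 1 KO. The median paired beta chain rested on 10 to 12 UMIs and the median alpha chain on 6 to 8. Between 59 and 146 cell barcodes were shared by a pair of libraries, and 0 of them had the same beta chain in both.

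The sequences behind the difference in TRAV11, described first, are 4 alpha CDR3s made of TRAV11 and TRAJ18. They are shown 5′ to 3′ from the first conserved cysteine codon, as the deposited contigs give them, with a capital at base 12, counted from 1 at the first base. This base is the only position at which the 4 differ, and all 4 encode the same 15 amino acids.

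alpha version 1: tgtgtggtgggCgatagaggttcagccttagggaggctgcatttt
alpha version 2: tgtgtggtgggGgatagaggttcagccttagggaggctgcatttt
alpha version 3: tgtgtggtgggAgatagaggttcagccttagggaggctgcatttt
alpha version 4: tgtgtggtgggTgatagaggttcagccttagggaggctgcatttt

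The invariant chain was more frequent in experiment 2 in both genotypes. Among paired cells, those in which either alpha contig joined TRAJ18 to TRAV11 or to TRAV11D made up 0.271% in experiment 1 WT (11 cells, exact 95% binomial interval 0.135 to 0.485) and 0.587% in experiment 1 KO (16 cells, 0.336 to 0.951). In experiment 2 they made up 1.37% in WT (61 cells, 1.05 to 1.75) and 1.75% in KO (105 cells, 1.44 to 2.12). Both libraries of experiment 2 lay above both of experiment 1, and the intervals of the experiments did not overlap. The intervals cover counting error only. The difference was 1.10 percentage points in WT and 1.17 in KO, a mean of 1.13 ± 0.049 (SD over the 2 genotype pairs). Exchanging the experiment labels inside each genotype gave an exact two-sided permutation p of 0.5, which is the smallest p that the 4 arrangements allow. In the anti-4-1BB libraries of the same experiments the share was 0.101% (experiment 1 WT), 0.339% (experiment 1 KO), 0.158% (experiment 2 WT) and 0.265% (experiment 2 KO).

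**Figure D1:**
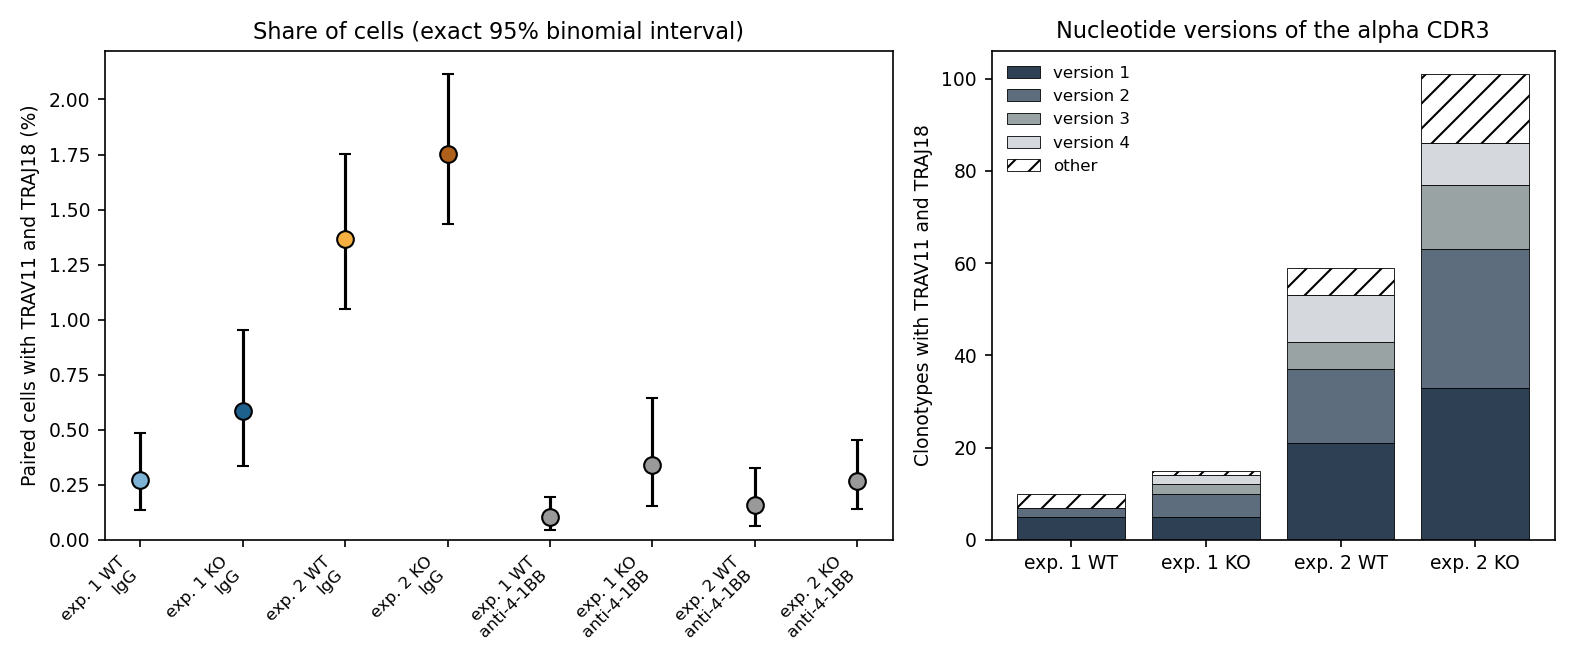
Left, the percent of paired cells whose alpha contigs joined TRAJ18 to TRAV11 or TRAV11D, in the 4 IgG libraries (colours) and the 4 anti-4-1BB libraries (grey), with exact 95% binomial intervals. Right, the number of clonotypes with TRAV11 joined to TRAJ18 in each IgG library, divided by the nucleotide version of the alpha CDR3. The IgG libraries of experiment 2, at 1.37% and 1.75%, stand above the other 6 libraries. Each of the 4 versions is seen in both of them and also in experiment 1 KO.

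These cells were many small clonotypes. The main alpha chain was TRAV11 with TRAJ18 in 10 and 15 clonotypes of experiment 1 (WT, KO) and in 59 and 101 of experiment 2. Of these 185 clonotypes, 1 in experiment 2 KO held 2 cells and each of the others was a single cell. The 4 versions printed above accounted for 160 of the 185 clonotypes (86.5%). In experiment 1 they made up 21 of 25 and in experiment 2 they made up 139 of 160. Version 1 occurred with 64 different beta chains, version 2 with 53, version 3 with 22 and version 4 with 21, as many beta chains as clonotypes in each case. Inside a library the definition of a clonotype makes these beta chains differ in V, J or CDR3 nucleotides. What the counts add is that none of them recurred between libraries with the same version. Version 1 was found in 5, 5, 21 and 33 clonotypes (experiment 1 WT, experiment 1 KO, experiment 2 WT, experiment 2 KO) and version 2 in 2, 5, 16 and 30. In the same order version 3 was found in 0, 2, 6 and 14 and version 4 in 0, 2, 10 and 9.

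Beta chains of the Vβ8, Vβ7 and Vβ2 families are the known partners of the invariant alpha chain in mice, and their members differed in frequency here. The files use a joint label, TRBV12-2+TRBV13-2, beside separate labels for these genes, and it was counted here with the Vβ8 family. In receptors found in 2 or more libraries, its beta CDR3 began with the bases seen with TRBV13-2 and not with those of TRBV12-2. The joint label was carried by 50.3% of the 185 clonotypes and by 12.5% of all other clonotypes. TRBV29, known as Vβ7, was carried by 20.5% against 2.02%. The other Vβ8 labels were TRBV13-3 with 10.3% against 6.71%, TRBV13-1 with 3.24% against 6.95% and TRBV13-2 alone with 2.16% against 2.10%. TRBV1, known as Vβ2, was carried by 3.78% against 6.98%. The joint label was at 50.0% and 40.0% of the invariant clonotypes of experiment 1 WT and KO, and at 44.1% and 55.4% in experiment 2, so its share overlapped between the experiments. TRBV29 stood at 20.0%, 40.0%, 22.0% and 16.8% in the same order, on 10 to 101 clonotypes.

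Another invariant receptor, the TRAV1 with TRAJ33 alpha chain of mucosal-associated invariant T cells, was not detected as the main alpha chain in 3 libraries. Unlike for the invariant NKT share, a second alpha contig was not searched for it. For the main alpha chain a count of 0 allows a share of up to 0.0739% in experiment 1 WT, 0.110% in experiment 1 KO and 0.0673% in experiment 2 WT. Experiment 2 KO held 1 such cell.

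Segment use was tested on the number of clonotypes per segment, so that a large clone counts as 1. Of 153 V and J segments tested, 4 (2.61%) differed between the experiments at an adjusted p under 0.05 by edgeR's quasi-likelihood test with Benjamini-Hochberg adjustment. TRAV11 and TRAV9-2 rose (1.31%) and TRAV6N-5 and TRAJ4 fell (1.31%) in experiment 2. Of 76 TRAV segments 3 passed, of 43 TRAJ segments 1, of 22 TRBV segments 0 and of 12 TRBJ segments 0. For TRBV 1 segment and for TRBJ 0 segments had an unadjusted p under 0.05. Over all 153 segments 14 had an unadjusted p under 0.05, and DESeq2 called 1, with 9 under an unadjusted 0.05. The segment that DESeq2 called was TRAV11 (DESeq2 adjusted p = 0.0166). The DESeq2 adjusted p was 0.558 for TRAV9-2, 0.558 for TRAJ4 and 0.923 for TRAV6N-5.

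The typical segment moved little. The median absolute log2 difference was 0.30 for TRAV, 0.19 for TRAJ, 0.20 for TRBV and 0.08 for TRBJ. In 90 of 153 segments the WT and KO pairs moved in the same direction. The libraries of the experiments did not overlap for 65 of 153 segments (42.5%).

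**Figure D2:**
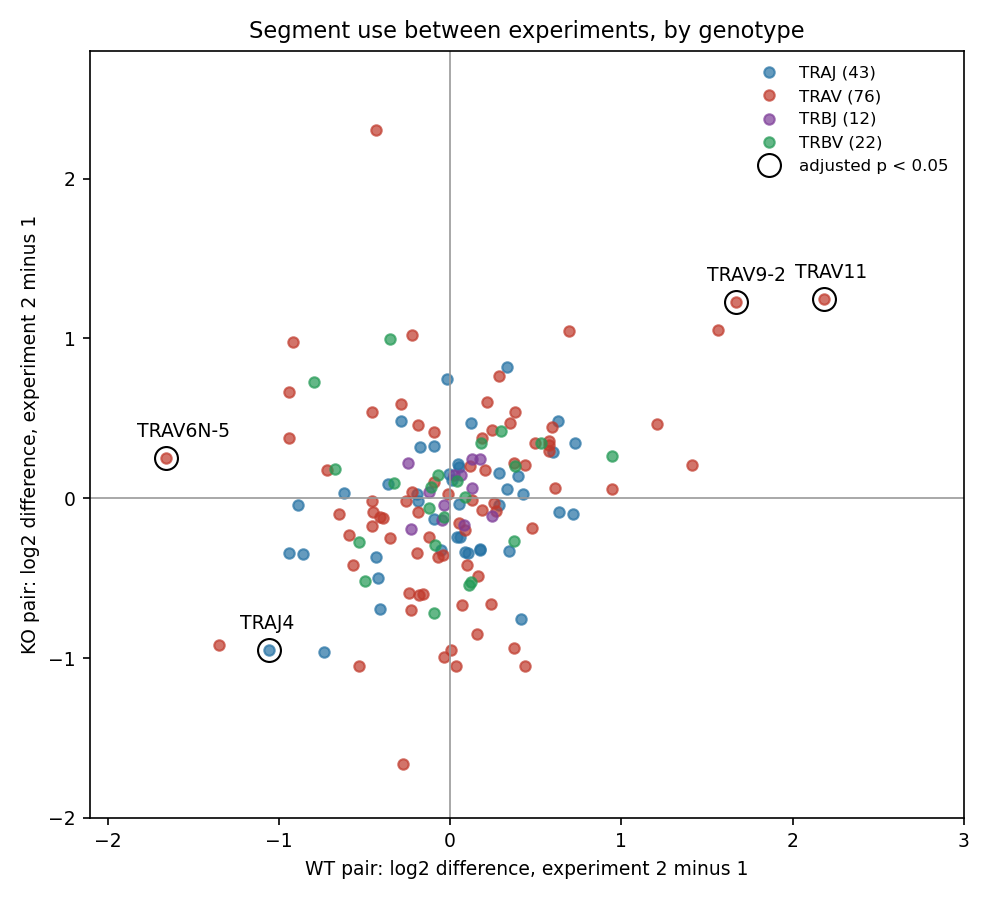
Each point is 1 of the 153 V or J segments, with the log2 difference in its share of clonotypes (experiment 2 minus experiment 1) in the WT pair on the x axis and in the KO pair on the y axis, coloured by segment type. Circles mark the 4 segments with an adjusted p under 0.05. TRAV11, TRAV9-2 and TRAJ4 lie away from 0 in both genotypes, while TRAV6N-5 is at -1.66 in WT and 0.25 in KO.

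TRAV11, the V segment of the invariant NKT alpha chain, lies at chr14:53519303-53519859 (GRCm38, RefSeq annotation). It was used by 0.380% of clonotypes in experiment 1 WT, 0.910% in experiment 1 KO, 1.78% in experiment 2 WT and 2.2% in experiment 2 KO. Both libraries of experiment 2 were higher than both of experiment 1. The log2 difference was 1.68 ± 0.29 (edgeR adjusted p = 4.64e-06, with the SE from the fit of all 8 TCR libraries, as for every segment and combination here), with 2.18 in the WT pair and 1.25 in the KO pair. Without the invariant alpha chain TRAV11 was left in 3, 6, 6 and 4 clonotypes, too few to be tested. With anti-4-1BB the same difference between experiments was 0.20 ± 0.40 (edgeR adjusted p = 0.826). The difference between these values was 1.48 ± 0.50 and did not pass after adjustment (edgeR adjusted p = 0.104).

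TRAJ18, the J segment of that chain (chr14:54200777-54200842), was used by 2.10%, 3.16%, 3.50% and 4.04% of clonotypes in the order experiment 1 WT, experiment 1 KO, experiment 2 WT, experiment 2 KO. Its log2 difference was 0.54 ± 0.17 and missed the threshold (edgeR adjusted p = 0.0824). Without the invariant alpha chain the TRAJ18 shares were 1.82%, 2.53%, 1.92% and 1.97%, and the log2 difference was -0.14 ± 0.19 (edgeR adjusted p = 0.771).

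TRAV9-2 (chr14:53591080-53591504) was rare in every library, at 0.204%, 0.260%, 0.684% and 0.649% of clonotypes in the same order. These shares stand for 7, 6, 25 and 31 clonotypes. Both libraries of experiment 2 were higher, with a log2 difference of 1.53 ± 0.44 (edgeR adjusted p = 0.0255). In experiment 2 the segment was spread over 12 (WT) and 19 (KO) J segments. Its 25 and 31 clonotypes there had 21 and 29 different alpha CDR3 amino acid sequences and as many different beta CDR3s as clonotypes. Clonotypes of a library differ in at least 1 chain by definition. The largest TRAV9-2 clone held 9 cells, in experiment 2 WT.

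TRAJ4 (chr14:54216291-54216353) is among the J segments farthest from the V genes. It was used by 1.55% and 1.82% of clonotypes in experiment 1 (WT, KO) and by 0.739% and 0.943% in experiment 2. The log2 difference was -0.98 ± 0.23 (edgeR adjusted p = 0.0206), close in WT (-1.05) and KO (-0.95). TRAJ4 was joined to 20 to 26 different V segments in each library.

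TRAV6N-5 (chr14:53104871-53105344) was high in 1 library only. It was used by 2.10% of clonotypes in experiment 1 WT (72 clonotypes) and by 0.303%, 0.656% and 0.377% in experiment 1 KO, experiment 2 WT and experiment 2 KO (7, 24 and 18 clonotypes). The log2 difference between the experiments was -1.21 ± 0.32 (edgeR adjusted p = 0.0136), from -1.66 in WT and 0.25 in KO. Without experiment 1 WT the difference turned to 0.37. The 72 clonotypes of experiment 1 WT held 77 cells, 28 J segments, 19 TRBV labels and 70 different alpha CDR3 amino acid sequences. That they are separate clones follows from the definition of a clonotype and is not a result. TRAV6N-5 has near-identical copies, TRAV6-5 and TRAV6D-5, and the assignment among them is uncertain. Over the 3 copies the share was 3.18% in experiment 1 WT, 1.91% in experiment 1 KO, 2.82% in experiment 2 WT and 2.26% in experiment 2 KO, which overlapped between the experiments.

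**Figure D3:**
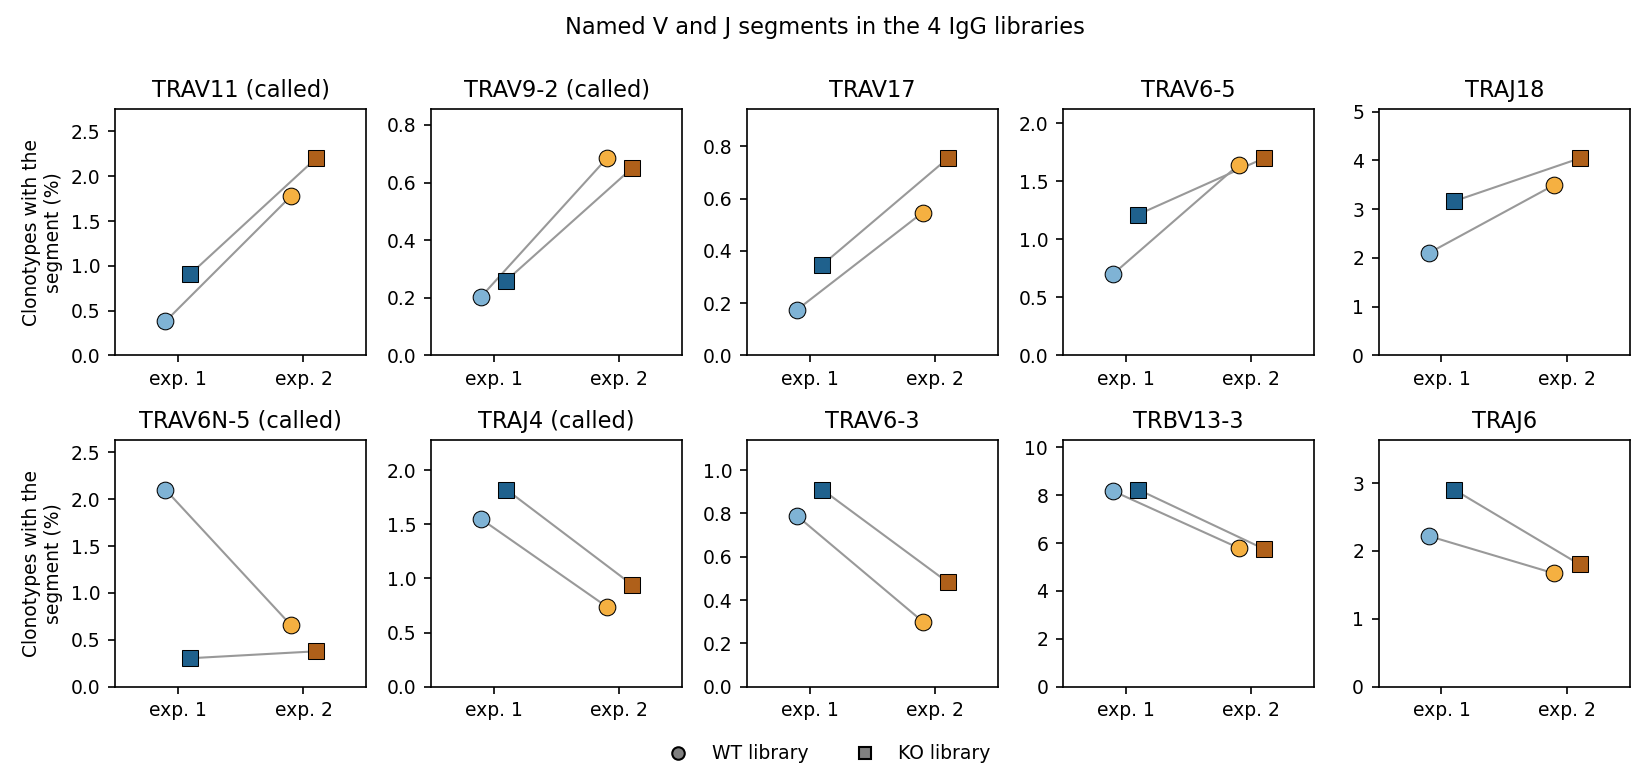
Percent of clonotypes that used each of 10 named segments in experiment 1 and experiment 2, with circles for the WT and squares for the KO library and a line joining the libraries of a genotype. The y axes differ between panels and start at 0. The upper row shows segments with a higher and the lower row segments with a lower fitted share in experiment 2, and the 4 that passed the test are marked.

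The calls rested on few libraries. Without experiment 1 WT, 0 of 153 segments passed by edgeR, with 17 under an unadjusted p of 0.05, and TRAV11 was at 1.32 ± 0.37 (edgeR adjusted p = 0.200). TRAV11 passed in 7 of the 8 fits that left out 1 library, TRAV6N-5 in 6, TRAJ4 in 5 and TRAV9-2 in 4. Without experiment 1 KO 2 segments passed, TRAV11 and TRAV6N-5, and without experiment 2 WT TRAV11 alone passed. TRAV9-2 was at 1.70 (edgeR adjusted p = 0.128) without experiment 1 KO, 1.46 (0.216) without experiment 2 WT and 1.61 (0.112) without experiment 2 KO. TRAJ4 was at -0.92 (0.128) without experiment 1 KO and -0.86 (0.216) without experiment 2 WT, and TRAV6N-5 at -0.87 (0.677) without experiment 2 WT. Without either anti-4-1BB library of experiment 1, which enter the estimate of the spread, 7 passed, the added ones being TRAV17, TRAV6-5 and TRAV6-3. Of these, TRAV6-5 is the near-identical copy of TRAV6N-5 named above.

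Other segments with small p-values missed the threshold. TRAV17 was at 0.175%, 0.347%, 0.547% and 0.754% of clonotypes (1.36 ± 0.44, edgeR adjusted p = 0.0527), and TRAV6-5 at 0.701%, 1.21%, 1.64% and 1.70% (0.84 ± 0.27, edgeR adjusted p = 0.0527). TRAV6-5 is a near-identical copy of TRAV6N-5 with uncertain assignment, and the sum of the 3 copies overlapped between the experiments. TRAV6-3 was at 0.788%, 0.910%, 0.301% and 0.482% (-1.12 ± 0.36, edgeR adjusted p = 0.0527). TRBV13-3, a Vβ8 gene, had 8.18% and 8.24% in experiment 1 and 5.80% and 5.76% in experiment 2 (-0.50 ± 0.15, edgeR adjusted p = 0.181). TRAJ6 had 2.22%, 2.90%, 1.67% and 1.80% (-0.53 ± 0.20, edgeR adjusted p = 0.217). In all 5 the libraries of the experiments did not overlap, as in 42.5% of all segments.

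V gene families were described by their counts and summed shares. Of 4 Vβ8 members 0 passed, with a median log2 difference of -0.08 against -0.04 over all TRBV, and the family took 29.7% and 30.3% of clonotypes in experiment 1 and 28.4% and 27.6% in experiment 2. Of 2 Vβ5 members 0 passed, at 3.42%, 1.60%, 2.05% and 2.22%. Of 9 TRBV labels that mouse superantigens are known to engage 0 passed. Their sum was 34.8% and 33.0% in experiment 1 and 29.3% and 31.9% in experiment 2. The difference was -5.51 percentage points in WT and -1.08 in KO, a mean of -3.29 ± 3.13 (SD over the 2 pairs), about as large as the SD. The 6 beta partners of the invariant chain took 37.8%, 39.1%, 38.3% and 37.2% of all clonotypes, with 0 of 6 passed and overlapping libraries.

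J segments of the beta chain were the steadiest. The TRBJ1 cluster took 30.1%, 31.7%, 30.1% and 31.9% of clonotypes, so that the experiments differed by -0.042 percentage points in WT and 0.202 in KO. In both experiments the KO library was the higher of its pair. Of 6 TRBJ1 and 6 TRBJ2 members 0 passed.

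Alpha J segments numbered above 30 lie nearer to the V genes and are joined in the earlier rounds of alpha rearrangement. They were used by 47.6% of clonotypes in experiment 1 WT, 51.0% in experiment 1 KO, 55.0% in experiment 2 WT and 51.4% in experiment 2 KO. The experiments did not overlap, but the difference was 7.30 percentage points in WT and 0.460 in KO, a mean of 3.88 ± 4.84 (SD), within the spread between genotypes. Of 22 such segments 0 passed and 16 had a positive difference, with a median log2 difference of 0.12 against 0.02 over all TRAJ. Of the 21 numbered 30 or below 1 passed, TRAJ4, and 6 were positive (median -0.14).

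In the mouse, many TRAV genes exist in duplicated copies with the suffix D or N. Genes without a suffix took 43.9% and 49.6% of clonotypes in experiment 1 and 51.2% and 51.6% in experiment 2. The difference was 7.35 percentage points in WT and 1.93 in KO, 4.64 ± 3.83 (mean ± SD of the 2 pairs). Of 38 tested without a suffix 2 rose, TRAV11 and TRAV9-2. Of 15 tested with D 0 passed, and of 23 with N 1 fell, TRAV6N-5, whose assignment among its copies is uncertain. Over all TRAV 3 of 76 passed, so these counts are too few to set the kinds of copy apart. The N copies took 35.8%, 31.7%, 31.3% and 30.9%, with experiment 1 WT highest, and the D copies 20.3%, 18.6%, 17.5% and 17.5%. In 99.5% to 99.7% of the contigs of each library the V part was the commonest sequence of its label.

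Of 70 TRAV-TRAJ combinations tested, 2 (2.86%) rose in experiment 2. TRAV11 with TRAJ18 was at 0.292%, 0.650%, 1.61% and 2.12% of clonotypes, a log2 difference of 2.04 ± 0.41 (edgeR adjusted p = 8.62e-05). This call was lost without experiment 1 WT (1.86, edgeR adjusted p = 0.184) and without experiment 2 WT (1.69, edgeR adjusted p = 0.142). TRAV5-4 with TRAJ37 was found in 0, 4, 11 and 22 clonotypes, a log2 difference of 2.34 ± 0.72 (edgeR adjusted p = 0.0473). The count of 0 in experiment 1 WT allows a share of up to 0.0876%. The 22 clonotypes of experiment 2 KO had 15 different alpha CDR3 amino acid sequences and 12 TRBV labels. This call held in 1 of 19 alternatives, with edgeR or DESeq2 adjusted p-values from 0.0553 to 0.941 in the other 18. Its size was unstable, with a log2 difference of 1.21 without experiment 1 WT and 6.87 without experiment 1 KO, where the remaining library of experiment 1 held 0 such clonotypes. Among combinations that did not pass were TRAV13-1 with TRAJ30 (7, 4, 17 and 25 clonotypes, log2 1.35), TRAV7D-2 with TRAJ21 (11, 6, 2 and 4, log2 -2.04) and TRAV7D-2 with TRAJ27 (28, 8, 6 and 17, log2 -1.14). For TRAV13-1 with TRAJ30, too, only the IgG libraries of experiment 2 reached the minimum. TRAV7D-2 with TRAJ27 was at -0.29 without experiment 1 WT, -1.71 without experiment 1 KO, -0.50 without experiment 2 WT and -2.02 without experiment 2 KO.

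Of 169 TRBV-TRBJ combinations 0 (0.0%) passed by edgeR, with 12 under an unadjusted p of 0.05, and DESeq2 called 0, with 2 under 0.05 unadjusted. The smallest p-value belonged to TRBV15 with TRBJ2-1, which took 0.905% and 0.780% of clonotypes in experiment 1 and 0.328% and 0.251% in experiment 2 (log2 -1.53 ± 0.45, edgeR adjusted p = 0.116). TRBV5 with TRBJ1-4 had 12 and 4 clonotypes in experiment 1 and 27 and 30 in experiment 2 (log2 1.36 ± 0.48, edgeR adjusted p = 0.423). TRBV2 with TRBJ1-1 had 2 and 2 against 10 and 13, and TRBV19 with TRBJ1-4 had 5 and 6 against 16 and 26. Among the IgG libraries, TRBV2 with TRBJ1-1 and TRBV19 with TRBJ1-4 reached the required minimum of 10 only in experiment 2, where they were high. The libraries of the experiments did not overlap in these 4 combinations, as in 61 of the 169 (36.1%).

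Of 127 TRAV-TRBV combinations 0 (0.0%) passed by edgeR, with 8 under an unadjusted p of 0.05, and DESeq2 called 0, with 2 under 0.05 unadjusted. TRAV11 with TRBV12-2+TRBV13-2, the main pairing of the invariant NKT receptor, was at 0.175%, 0.390%, 0.711% and 1.19% of clonotypes (log2 1.78 ± 0.48, edgeR adjusted p = 0.106). It passed in 4 alternatives: without the experiment 1 WT anti-4-1BB library (edgeR adjusted p = 0.0134), in the 4 IgG libraries alone with the genotype (0.000789), with a loess trend (0.00347) and in cells with exactly 1 TRA contig (0.0339). TRAV14-2 with TRBV1 followed with 1, 2, 7 and 19 clonotypes, TRAV13-1 with TRBV26 with 1, 4, 15 and 17, and TRAV7-5 with TRBV13-3 with 10, 9, 4 and 5. Among the IgG libraries, TRAV14-2 with TRBV1 and TRAV13-1 with TRBV26 reached the required minimum of 10 clonotypes only in experiment 2, where they were high. The libraries of the experiments did not overlap in 47 of the 127 combinations (37.0%), these 4 among them.

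Clone sizes did not differ between the experiments beyond the spread. The expanded share counts the cells that have at least 1 other cell of their clonotype in the library, and its expected value was computed at 2728 cells per library. It was 19.5% in experiment 1 WT, 22.7% in experiment 1 KO, 21.6% in experiment 2 WT and 21.3% in experiment 2 KO. The experiments overlapped, and the difference was 2.09 percentage points in WT and -1.35 in KO, a mean of 0.372 ± 2.43 (SD over the 2 pairs; exact permutation p = 1.0). Without equal cell numbers the shares were 22.8%, 22.7%, 26.5% and 28.9%, a difference of 4.93 percentage points, and the libraries of experiment 2 were also the larger ones. At 2728 cells the libraries held 2379, 2307, 2343 and 2345 clonotypes. A random pair of cells of the same library belonged to 1 clonotype with a chance of 1 in 4256, 3049, 4095 and 3921. On the log2 scale this chance, the Simpson concentration, differed by -0.15 ± 0.30 (SD). The 10 largest clonotypes took 3.20%, 4.29%, 3.07% and 3.36% of cells, a difference of -0.533 ± 0.567 percentage points (SD).

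**Figure D4:**
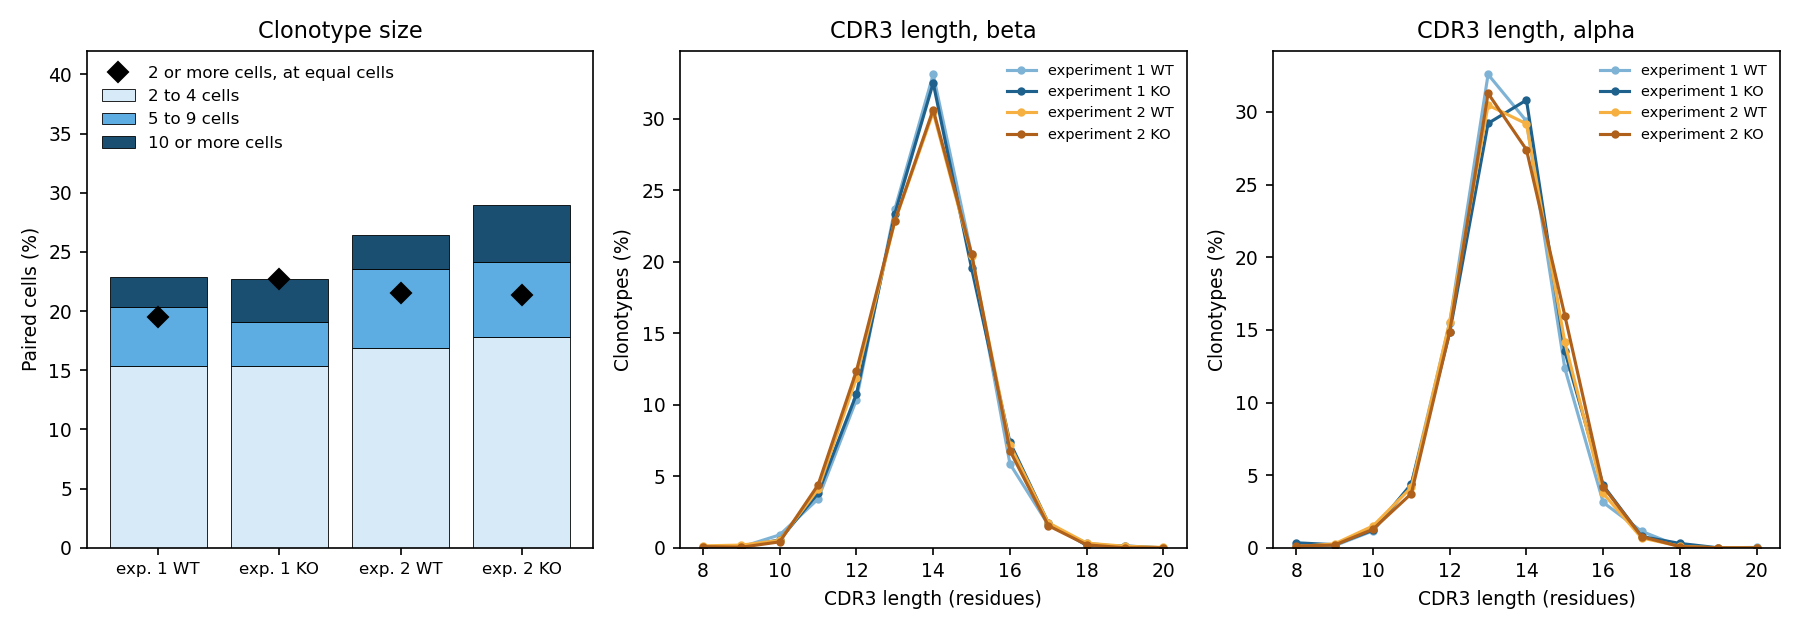
Left, stacked bars give the percent of paired cells in clonotypes of 2 to 4, 5 to 9 and 10 or more cells in each IgG library, and diamonds give the expanded share at 2728 cells per library, whose values lie between 19.5% and 22.7%. Middle and right, the percent of clonotypes with each CDR3 length in residues, for the beta and the alpha chain, with 1 line for each library.

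The largest clone of each library had a different receptor. It held 30 cells (0.739%) in experiment 1 WT, 20 (0.733%) in experiment 1 KO, 31 (0.695%) in experiment 2 WT and 33 (0.551%) in experiment 2 KO. Their beta CDR3s are shown as the dominant expansions of each library, with the codons of residues 6 and 7, near the centre of the loop, in capitals.

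experiment 1 WT, TRBV15 with TRBJ2-1: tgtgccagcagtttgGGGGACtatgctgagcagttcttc
experiment 1 KO, TRBV12-2 with TRBJ2-5: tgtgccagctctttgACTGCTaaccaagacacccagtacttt
experiment 2 WT, TRBV20 with TRBJ2-7: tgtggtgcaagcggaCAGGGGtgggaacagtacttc
experiment 2 KO, TRBV10 with TRBJ2-5: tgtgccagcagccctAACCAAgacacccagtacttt

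They paired with alpha chains of TRAV14-2 and TRAJ31, TRAV14D-3-DV8 and TRAJ12, TRAV3N-3 and TRAJ30, and TRAV4-4-DV10 and TRAJ49. Among the 3 largest clones of each of the 4 libraries, 0 of 12 were found in another IgG library. The largest clone of experiment 2 KO and the third largest of experiment 2 WT (12 cells, TRBV15 with TRBJ1-5) carried the identical alpha CDR3 on different beta chains.

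alpha CDR3 of both clones, TRAV4-4-DV10 with TRAJ49: tgtgctgctgagtaccagaacttctatttt

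CDR3 lengths were nearly equal. The mean beta CDR3 was 13.8 residues in every library (13.795, 13.8205, 13.7905 and 13.7609), a difference of -0.032 ± 0.039 residues (SD over the 2 pairs). Both libraries of experiment 2 lay below both of experiment 1, by less than the spread between genotypes. A length of 14 residues was found in 33.1% and 32.5% of clonotypes of experiment 1 and in 30.5% and 30.7% of experiment 2. Beta CDR3s of 12 residues or fewer made up 14.8% and 15.2% in experiment 1 and 16.9% and 17.4% in experiment 2. The mean alpha CDR3 differed by 0.019 residues in both WT and KO (13.3965 and 13.4569 in experiment 1, 13.4158 and 13.4754 in experiment 2), and the experiments overlapped. Without the cells of the invariant alpha chain, whose commonest CDR3 has 15 residues, that difference was -0.00174.

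CDR3 composition was also close. Hydrophobic residues at both central beta positions, 6 and 7, a feature linked to self-reactivity, were found in 0.934% and 0.910% of clonotypes of experiment 1 and in 1.09% and 0.943% of experiment 2. The difference was 0.0962 ± 0.0900 percentage points (SD over the 2 pairs; exact permutation p = 0.5, the smallest possible). The mean net charge of the beta CDR3 was -0.747, -0.772, -0.776 and -0.748, and its difference had opposite signs in WT and KO. Over the 20 residues, counted without 3 at each end, no share moved by more than 0.524 percentage points in the beta chain or 0.744 in the alpha chain in WT, or by more than 0.381 and 0.480 in KO. Cells with 2 alpha chains made up 5.18% and 6.09% in experiment 1 and 5.16% and 5.98% in experiment 2, higher in KO than in WT in both. No doublet caller was run, and cells with 2 beta contigs, 3.82% to 5.45% of a library, were not among the paired cells.

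Shared chains were counted between all 6 pairs of libraries, at the expected number for 2307 clonotypes per library. A beta chain was called shared when V, J and CDR3 amino acids were the same. The pairs inside an experiment shared 1.38% (experiment 1) and 1.73% (experiment 2) of beta chains, and the 4 pairs across experiments shared 0.962% to 1.38%, a mean of 1.15%. The highest pair across experiments, the KO libraries with 1.381%, was level with the pair inside experiment 1, at 1.378%. The mean inside minus the mean across was 0.407 percentage points, and 0.132 without experiment 2 WT. The 2 pairs inside an experiment always join a WT and a KO library, while the pairs across also join libraries of the same genotype.

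Alpha chains were shared more often, with 4.21% and 4.55% inside an experiment and 3.72% to 3.88% across, so that both pairs inside lay above all 4 across. Both chains together were shared by 0.322% and 0.380% inside and by 0.110% to 0.223% across. With CDR3 nucleotides in place of amino acids, beta sharing was 0.422% and 0.512% inside and 0.205% to 0.456% across.

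**Figure D5:**
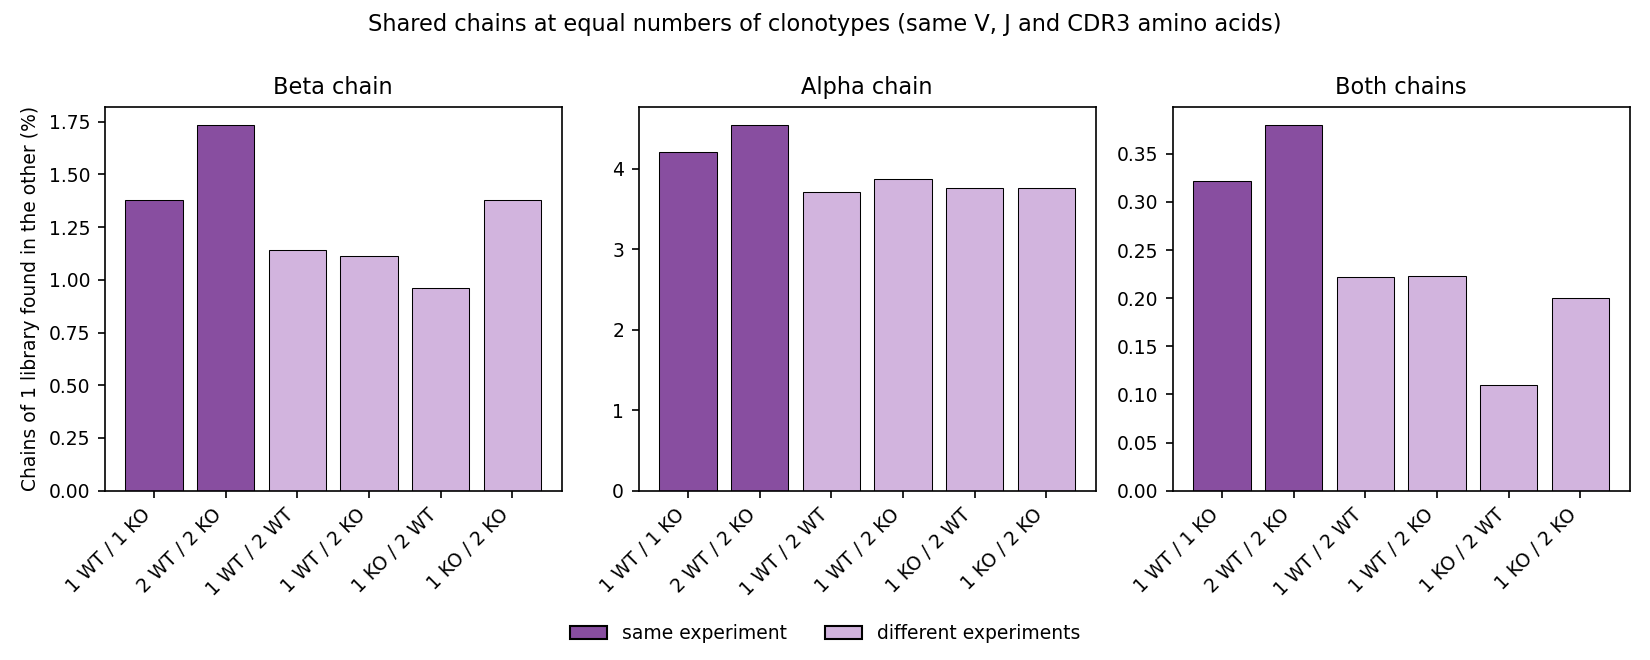
Percent of beta chains, alpha chains and paired receptors (same V, J and CDR3 amino acids) of a library found in the other, for the 6 pairs of IgG libraries at 2307 clonotypes each, with the pairs of the same experiment in dark purple and the pairs across experiments in light purple. For alpha chains and for both chains the 2 dark bars are the highest. For the beta chain the pair 1 KO / 2 KO, at 1.381%, is level with 1 WT / 1 KO.

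Of 13 receptors found with identical nucleotides in both chains in 2 libraries, 10 joined libraries of the same experiment and 3 joined different experiments. There were 4 in experiment 1, 6 in experiment 2 and 0, 0, 1 and 2 in the 4 pairs across. A clone of 12 cells in experiment 1 WT was found with 1 cell in experiment 1 KO (TRBV12-2+TRBV13-2 with TRBJ2-5, TRAV12N-2 with TRAJ37). Another of 8 cells in experiment 1 WT was found with 2 cells in experiment 1 KO (TRBV14 with TRBJ2-4, TRAV7N-6 with TRAJ23).

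A receptor of experiment 2, joining TRBV2 with TRBJ1-3 and TRAV4-3 with TRAJ50, appeared in 3 nucleotide versions that encode the same amino acids. Of these, 2 were in both libraries of experiment 2 and are shown, and 1 was in a single cell of experiment 2 WT. The first version shown was in 1 cell of WT and 4 of KO and the second in 1 cell of WT and 5 of KO. Several versions were not particular to this receptor. A receptor of TRBV5 with TRBJ2-4 and TRAV6-2 with TRAJ21 had 8, all in experiment 2. A receptor of TRBV1 with TRBJ2-4 and TRAV13-1 with TRAJ30 had 6, in cells of both experiments. Codons of residues 6 and 7 are in capitals in the beta CDR3s, and the alpha CDR3s are in lower case throughout.

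beta, first version: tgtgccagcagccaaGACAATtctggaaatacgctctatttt
beta, second version: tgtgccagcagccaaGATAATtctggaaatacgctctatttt
alpha, first version: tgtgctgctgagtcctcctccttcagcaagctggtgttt
alpha, second version: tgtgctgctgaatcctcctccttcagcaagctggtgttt

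Nearly all beta chains were seen in 1 library only. Each library held 2307 to 4773 clonotypes, so a chain not seen in a library may have gone unsampled there. Of the different beta chains (V, J and CDR3 amino acids) 12759 (97.8%) were in 1 library, 271 in 2, 16 in 3 and 4 in all 4. Chains in 2 or more libraries had a mean CDR3 of 13.4 ± 1.22 residues (SD over 291 chains) against 13.8 ± 1.37 for the others. The 4 that were in all libraries are shown by their commonest nucleotide version, with the codons of residues 6 and 7 in capitals.

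TRBV20 with TRBJ2-7: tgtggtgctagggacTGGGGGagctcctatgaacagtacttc
TRBV16 with TRBJ2-7: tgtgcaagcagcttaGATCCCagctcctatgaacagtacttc
TRBV10 with TRBJ1-4: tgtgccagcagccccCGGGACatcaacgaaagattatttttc
TRBV20 with TRBJ2-2: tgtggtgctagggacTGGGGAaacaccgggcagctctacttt

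The first was found in 16 clonotypes (5, 3, 3 and 5 in the order experiment 1 WT, experiment 1 KO, experiment 2 WT, experiment 2 KO), with 9 nucleotide versions and 15 alpha chains. The second was found in 9 clonotypes (1, 3, 1 and 4) with 4 versions. The third was found in 6 clonotypes (2, 1, 2 and 1), all with the same beta nucleotides and with 5 alpha chains. The fourth was found in 5 clonotypes (1, 1, 2 and 1) with 4 versions. All 4 have 14 residues.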

How the data were processed

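The contigs, their V, D and J labels, CDR3s and the counts of UMIs and reads were deposited by the authors for each library, and every contig used was marked as productive and in a cell. Per the submitters' processing notes, Cell Ranger 7.1.0, bcl2fastq 2.20.0 and Seurat were used with GRCm38. Which V(D)J reference served is not given in the sources used here. Cells with 1 TRB and 1 or 2 TRA contigs were kept. Most of the cells left out had 1 TRB contig and no TRA contig. They made up 42.3% of cells in experiment 1 WT, 33.8% in experiment 1 KO, 42.0% in experiment 2 WT and 36.4% in experiment 2 KO. Shares, clone sizes and shared chains here do not cover them. Cells without a TRB contig made up 4.78% to 8.38% of a library. The rule also removes cells with 2 or more TRB contigs (3.82% to 5.45%), some of which may be doublets, and no doublet caller was run. Clonotypes per segment were tested with edgeR 4.0.16 (R 4.3.3) in a fit of all 8 TCR libraries with 4 means (experiment by treatment) and genotype as a block, 1 fit for each of the 4 segment types and 1 for each kind of combination. The size of a library was the total of that type, 1 dispersion was used without a trend, and 10 clonotypes in at least 2 libraries were required. For TRAV the prior degrees of freedom came out infinite, so each SE there rests on a spread pooled over TRAV segments. The replicate numbers stand for the genotype, which is the same line in both experiments only for WT, so the pair is the genotype and not an animal. Benjamini-Hochberg adjusted p-values under 0.05 were called, over all segments or within a kind of combination. Named segments were those called, filled to 5 in each direction by p; combinations were filled to 3. Of 153 tested labels 152 had GRCm38 coordinates. The members and lists were chosen with earlier results of these data known. The comparison with anti-4-1BB was added after the data were seen. DESeq2 1.42.0, Python 3.11.15, scipy 1.17.1 and pandas 2.3.3 served the other steps. The 8 gene expression libraries were not analysed here.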

Additional observations from a re-analysis of the deposited data

Results flagged for a closer look

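In a test added after the data were seen (edgeR interaction contrast), the difference between the experiments under IgG was set against that under anti-4-1BB. It passed at an adjusted p under 0.05 for 3 of 169 TRBV-TRBJ combinations. Among the 153 segments, the 70 TRAV-TRAJ and the 127 TRAV-TRBV combinations 0 passed. For TRBV12-1 with TRBJ2-7 the log2 difference with IgG (-0.23) exceeded that with anti-4-1BB (-3.06) by 2.83 ± 0.73 (SE, edgeR adjusted p = 0.0220). For TRBV12-1 with TRBJ1-1 the values were -0.63 and -4.15, which differ by 3.52 ± 1.04 (edgeR adjusted p = 0.0498). For TRBV12-2 with TRBJ2-4 they were 0.56 and -2.80, which differ by 3.35 ± 1.00 (edgeR adjusted p = 0.0498). With IgG alone 0 of these 3 combinations passed the test between the experiments. Their IgG clonotypes were 10, 10, 14 and 11 for the first, 8, 2, 4 and 5 for the second and 6, 1, 7 and 9 for the third (experiment 1 WT, experiment 1 KO, experiment 2 WT, experiment 2 KO). In the second and the third 0 IgG libraries reached the minimum of 10, so these were tested only through anti-4-1BB libraries in which they were high, and their difference between treatments is a description and supports nothing.

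In 4 results listed here the WT and the KO pair moved in opposite directions, and in none of them was the difference between genotypes tested. Opposite directions were common, since only 90 of all 153 segments moved in the same direction in both genotypes. TRAV6N-5 was at -1.66 in WT and 0.25 in KO on the log2 scale. The expanded share moved by 2.09 percentage points in WT and -1.35 in KO, the log2 Simpson concentration by 0.06 and -0.36, and the mean net charge of the beta CDR3 by -0.0291 and 0.0241.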

How the results depend on the processing

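Segment calls numbered 4 as reported, of which only TRAV11 was kept by DESeq2 and only TRAV11 with at least 3 UMIs per chain. They numbered 1 with DESeq2, 0 with cells in place of clonotypes (edgeR, 18 under an unadjusted 0.05), 1 with at least 3 UMIs per chain, 5 with exactly 1 TRA contig and 0 to 7 when a library was left out. Without the replicate block (genotype) 4 passed in the 8 libraries and 3 in the 4 IgG libraries, and with the block 4 passed in the 4 IgG libraries. TRAV6N-5 ranged from -1.72 to 0.37 when a library was left out and reversed, to 0.37, without experiment 1 WT. TRAV-TRAJ calls numbered 2 as reported, 0 to 2 when a library was left out, 1 in the 8 libraries without the replicate block, in the 4 IgG libraries with or without it, with TMM factors, DESeq2, a loess trend, 3 UMIs or 1 TRA contig, and 0 without a filter, with cells, or without the invariant alpha chain. TRBV-TRBJ calls were 0 as reported and 1 in the 4 IgG libraries with no replicate block (TRBV15 with TRBJ2-1). TRAV-TRBV calls were 0 as reported, 2 in the 4 IgG libraries with the replicate block, 2 with a loess trend, 1 with exactly 1 TRA contig and 0 to 1 when a library was left out. The cause of these changes was not tested.

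The invariant share difference (1.13) was 1.08 with 3 UMIs, 1.39 over clonotypes, and 0.939 to 1.32 when a library was left out. The expanded share difference (0.372) was 4.93 without thinning and -1.24 to 1.98 when a library was left out, lowest without experiment 1 WT and highest without experiment 1 KO. In the same way the top 10 share difference went from -1.08 to 0.00940 and the log2 Simpson difference from -0.39 to 0.09, between the same libraries. The hydrophobic difference was 0.230 over cells and went from 0.0205 without experiment 2 WT to 0.172 without experiment 2 KO. The alpha length difference was 0.0218 with 3 UMIs, 0.0114 with 1 TRA contig, 0.00759 over cells, -0.00174 without the invariant chain and -0.0113 to 0.0491 when a library was left out. The difference in cells with 2 alpha chains was 0.0297 with 3 UMIs, 0.442 over all cells with a TRA contig and -0.518 to 0.391 when a library was left out. The shared beta difference was 0.137 with nucleotides, 0.596 for alpha chains and 0.132 to 0.608 when a library was left out.

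With 1 library per genotype and experiment, single values cannot pass an exact test. Experiment 1 KO, with 2728 paired cells, limits what rare receptors can be seen. Leaving out the invariant chain was chosen after seeing the data. Counts of inserted nucleotides in the CDR3 were planned and not run, since they need germline V and J sequences, which were not used here.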
